A study of Rattus norvegicus with 18 samples.

Results

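A set of 10 genes of astrocytes and radial glia were followed through rat oligodendrocyte progenitor cells (OPCs), the glial cells that divide and form myelinating oligodendrocytes. The members were taken by gene symbol: Gfap, Aqp4, Slc1a2, Slc1a3, Aldoc, Fabp7, Gja1, Mt3, Sparcl1 and Clu, 10 of the 17337 genes in the files, and 10 of 10 passed the filter on low values that left 15144 genes for testing. OPCs of Rattus norvegicus were enriched with magnetic beads, and total RNA was sequenced in 6 groups of 3 libraries. The 6 groups were aged primary and neonate primary sorted cells, aged cells on soft and on stiff hydrogels, and neonate cells on soft and on stiff hydrogels. The gels were coated with laminin, and the growth text, repeated for all samples, states culture in FGF and PDGF. The age of the primary libraries is given only by the letter of their titles, and the labels give no strain, no age in days and no stiffness value.

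Astrocytes support neurons by clearing glutamate and potassium, moving water and coupling to each other through gap junctions, and radial glia are the embryonic progenitors that share many of these genes. OPCs descend from radial glia, and they are themselves known to transcribe several genes of this set, Fabp7 and Slc1a3 among them. A level measured in bulk RNA can therefore come from the OPCs or from other cells in the preparation. Fewer cells of a type and less RNA per cell cannot be told apart in such data.

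The 10 genes lie on 8 rat chromosomes (coordinates as in the files, build rn6). The structural genes are Gfap, the intermediate filament protein of astrocytes (chr10:90990762-90999435, minus strand, 9 exons), and Gja1, the gap junction protein connexin 43 (chr20:37876650-37889094, plus strand). The transport genes are Aqp4, the water channel of astrocyte endfeet (chr18:6766009-6782757, minus strand), and the glutamate transporters Slc1a2, or GLT-1 (chr3:92518679-92665731, plus strand), and Slc1a3, or GLAST (chr2:57860881-57935363, minus strand). The metabolic and binding proteins are Aldoc, the brain form of the glycolytic enzyme aldolase (chr10:65586504-65590093, plus strand), Fabp7, the brain lipid-binding protein of radial glia (chr20:40769624-40773156, plus strand), and Mt3, a zinc- and copper-binding metallothionein of brain (chr19:11324708-11326112, minus strand). The secreted proteins are Sparcl1, also called hevin, a matrix protein that astrocytes release at synapses (chr14:6994261-7025309, plus strand), and Clu, the extracellular chaperone clusterin (chr15:42626612-42665848, plus strand). The span of Clu overlaps that of Scara3 on the other strand, and reads were assigned without use of strand, so these genes cannot be told apart where they overlap.

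The promoters of the 4 members called between aged and neonate gel cultures (both gels as 1 contrast, given with the comparisons) are shown, as the 250 bases before the start site in the direction of the gene (RefSeq, build GRCr8). Capitals mark matches, on either strand, to 5 short motifs. TTGGCA is part of the site of NFI factors, which act in astrocyte formation. TGGGAA is the core bound by RBPJ, the DNA-binding partner of Notch. ACAAT is the core of SOX sites. TATAAA is the TATA box, and the letters GGGCGG are those of a GC box, bound by SP and KLF factors.
Gfap, chr10:88361662-88361911, minus strand: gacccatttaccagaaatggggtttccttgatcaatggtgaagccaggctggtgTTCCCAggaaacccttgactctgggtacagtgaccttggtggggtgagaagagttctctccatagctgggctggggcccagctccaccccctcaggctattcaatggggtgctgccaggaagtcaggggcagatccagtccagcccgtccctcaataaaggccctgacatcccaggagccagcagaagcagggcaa
Mt3, chr19:10856081-10856330, minus strand: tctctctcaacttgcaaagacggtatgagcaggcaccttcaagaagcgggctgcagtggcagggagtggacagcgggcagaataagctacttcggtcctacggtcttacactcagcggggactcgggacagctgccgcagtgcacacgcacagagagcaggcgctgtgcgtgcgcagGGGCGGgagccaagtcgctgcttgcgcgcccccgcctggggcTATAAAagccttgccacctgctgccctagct
Sparcl1, chr14:5937234-5937483, plus strand: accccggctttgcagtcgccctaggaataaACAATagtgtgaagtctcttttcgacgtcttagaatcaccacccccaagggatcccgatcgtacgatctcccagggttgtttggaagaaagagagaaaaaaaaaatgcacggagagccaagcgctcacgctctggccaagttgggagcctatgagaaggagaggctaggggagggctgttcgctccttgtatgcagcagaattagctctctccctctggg
Fabp7, chr20:37669356-37669605, plus strand: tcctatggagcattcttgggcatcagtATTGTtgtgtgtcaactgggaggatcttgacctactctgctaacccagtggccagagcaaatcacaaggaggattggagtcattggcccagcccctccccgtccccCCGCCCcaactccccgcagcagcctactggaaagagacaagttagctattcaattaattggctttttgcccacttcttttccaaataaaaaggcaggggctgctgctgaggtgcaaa
The Gfap window held TGGGAA on the other strand, 196 to 191 bases before the start. The Mt3 window held TATAAA 31 to 26 bases and GGGCGG 73 to 68 bases before the start, the Sparcl1 window ACAAT 220 to 216 bases before it, and the Fabp7 window ACAAT and GGGCGG, both on the other strand. Promoters were listed for 9 of the 10 members. The motif found in the largest number of members was GGGCGG, in 4 (Aldoc, Aqp4, Fabp7 and Mt3). A member counted if any of its windows held the motif, and the 9 members had 13 windows. The shares that follow are of single promoters. Among all 33469 promoters listed, the GC box was held by 30.5%, the SOX core by 30.0%, the RBPJ core by 22.1%, the TATA box by 12.9% and the NFI motif by 12%. A match describes the letters of a window and is no evidence of binding.

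Depth was low, and it limits every value that follows. Levels are given as scaled TPM, which is TPM (a share of transcripts that allows for their length) after division by a factor that puts the libraries on 1 scale. Libraries held 33939 to 141883 read pairs on annotated exons, estimated at 300 bases per pair, and 22200 to 105647 without ribosomal RNA and 2 further entries that together took 44.5% to 88.8% of TPM. Replicate 1 of each aged group covered 54.7% to 77.2% of the 1197 olfactory receptor genes, more than any other library, and these 3 are called broad libraries. Aged soft libraries 2 and 3 covered 39.2% and 30.8%, and the remaining libraries 0.251% to 18.9%. Leaving out the 3 broad libraries therefore does not make the aged soft group like the others in this respect. The labels do not tie libraries to animals, so the p-values speak of the spread between libraries, which may be technical. OPC markers were present in every group: the summed level of 7 OPC genes was 553 to 651 in neonate primary, 1023 to 1342 in neonate soft, 630 to 1389 in neonate stiff, 265 to 621 in aged soft, 51.4 to 325 in aged stiff and 75.2 to 182 in aged primary libraries.

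**Figure D1:**
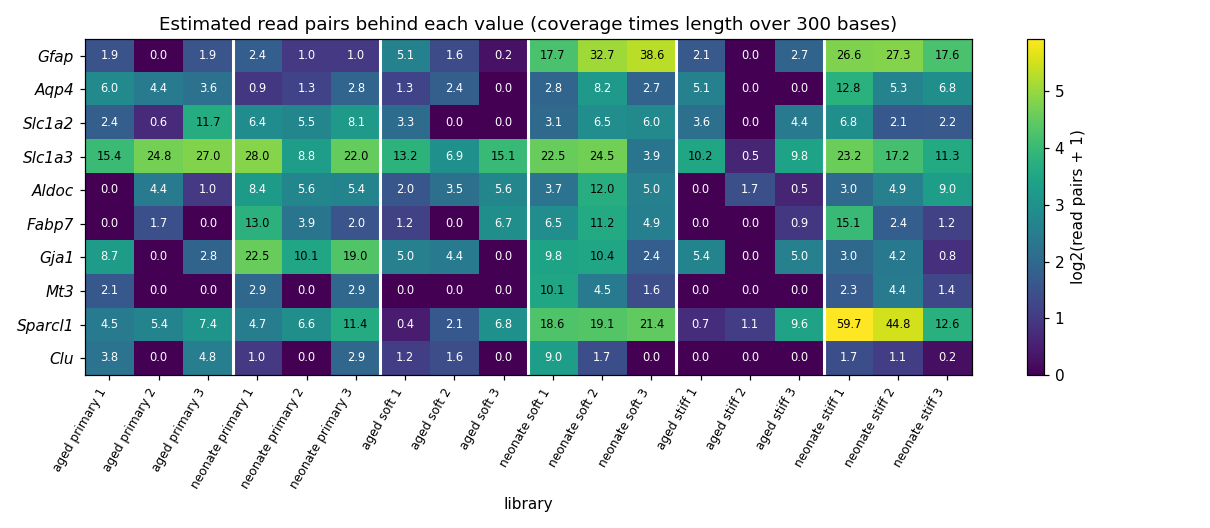
Estimated read pairs behind each value, for the 10 genes (rows) in the 18 libraries (columns, grouped by condition). Each cell prints the number of pairs and its colour gives log2(pairs + 1). The highest number was 59.7 pairs, on Sparcl1 in neonate stiff gel library 1, and Mt3 had none in any aged gel library.

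The 10 genes drew 28.8 pairs in all on Clu, 32.3 on Mt3, 66.4 on Aqp4, 70.8 on Fabp7, 72.6 on Slc1a2, 75.8 on Aldoc, 114 on Gja1, 180 on Gfap, 237 on Sparcl1 and 284 on Slc1a3. A single pair was worth more on a short transcript: 11.9 to 55.6 scaled TPM on the 376-base Mt3, 7.41 to 34.7 on the 602-base Fabp7, and 1.66 to 7.78 on the 2688-base Gfap. Slc1a3 and Sparcl1 were above 0 in 18 of 18 libraries, Gfap and Aldoc in 16, Aqp4, Slc1a2 and Gja1 in 15, Fabp7 in 13, Clu in 11 and Mt3 in 9. A level of 0 in these libraries therefore means that no pair was assigned, not that the transcript was absent.

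**Figure D2:**
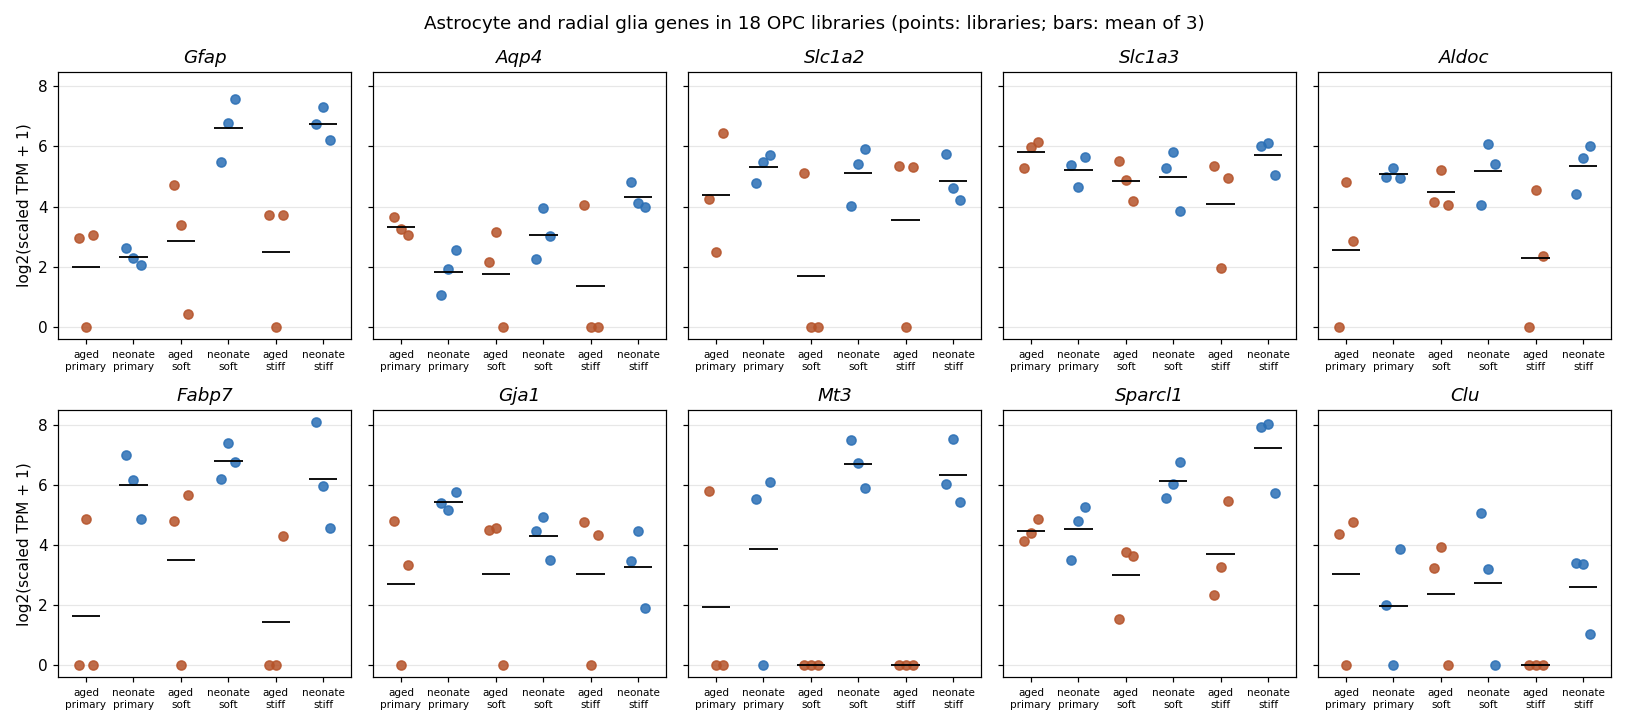
Level of each of the 10 genes in each library, as log2(scaled TPM + 1), in 6 groups of 3. Points are libraries (orange aged, blue neonate) and bars are means of 3. Gfap, Mt3 and Sparcl1 lay higher in all 6 neonate gel libraries than in all 6 aged gel libraries.

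Gfap was high in neonate gel cultures and low in the other groups. In neonate cells it was at 43.7, 108 and 192 scaled TPM on soft gels and at 106, 157 and 72.8 on stiff gels. In aged cells it was at 25.4, 9.61 and 0.365 on soft gels and at 12.1, 0 and 12.2 on stiff gels. The lowest neonate gel library was thus above the highest aged gel library. Primary cells were low at both ages, with 6.78, 0 and 7.34 in the aged group and 5.13, 3.92 and 3.16 in the neonate group, which overlapped. The neonate gel reads were spread along the gene, covering 4 to 9 of its 9 exons on soft and 8 to 9 on stiff gels. Aged soft libraries covered 1 and aged stiff libraries 0 to 3. Neonate gel libraries held 17.6 to 38.6 Gfap pairs and aged gel libraries 0 to 5.08, so the exon counts are no evidence apart from the level. In order of mean level the groups ran neonate soft (115 ± 74.5, SD, n = 3), neonate stiff (112 ± 42.5), aged soft (11.8 ± 12.6), aged stiff (8.11 ± 7.02), aged primary (4.71 ± 4.09) and neonate primary (4.07 ± 0.996). No neighbours in this order differed at an adjusted p under 0.05, the lowest being 0.0545 for neonate stiff against aged soft (limma).

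Sparcl1 was likewise higher in neonate than in aged gel cultures, with means that ran from neonate stiff (184) through neonate soft (72.6) and aged stiff (18.7) to aged soft (8.68). It was at 46.5, 63.6 and 108 scaled TPM in neonate soft and at 240, 259 and 52.4 in neonate stiff libraries. Aged soft libraries held 1.92, 12.7 and 11.5 and aged stiff libraries 4.06, 8.66 and 43.3. Library 3 of the aged stiff group stood well above the other two, yet below every neonate gel library. Primary levels were 16.6, 19.9 and 28.4 for the aged group and 10.2, 26.9 and 37.3 for the neonate group, with overlap. Sparcl1 differed between aged soft and neonate stiff gels by −4.24 on the log2 scale, the lowest adjusted p among its 15 pairs of groups (limma, 0.00484).

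Mt3 was listed at 0 in all 6 aged gel libraries. It was at 179, 105 and 58.5 scaled TPM in neonate soft and at 64.6, 182 and 41.7 in neonate stiff libraries. Among primary cells the aged libraries held 54.8, 0 and 0 and the neonate libraries 44.9, 0 and 67.7. Few reads lie behind these values: 1 pair on Mt3 was worth 11.9 to 42.9 scaled TPM in aged soft and 31.9 to 55.6 in aged stiff libraries, and the neonate gel values rested on 1.41 to 10.1 pairs. The neonate pairs fell on 2 or 3 of the 3 exons in each gel library. The aged gel groups held no reads of Mt3, so no linear fold is given, and its fitted differences on gels depend on the pseudocount and are no bounds.

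The mean level of Fabp7 was higher in neonate than in aged cells in each setting. Neonate levels were 125, 70.2 and 28.3 scaled TPM in primary, 71.5, 165 and 108 in soft gel and 269, 61.7 and 22.8 in stiff gel libraries. Aged levels were 0, 28.2 and 0 in primary, 26.8, 0 and 49.7 in soft gel and 0, 0 and 18.9 in stiff gel libraries. Within each setting every aged library lay below every neonate library, by as little as 28.2 against 28.3 in primary cells. Few reads lie behind the lower values. Neonate primary library 3 rested on 1.96 pairs and neonate stiff library 3 on 1.23, and both lay below aged soft library 3. One pair was worth 16.2 to 16.9 scaled TPM in aged primary and 19.9 to 34.7 in aged stiff libraries. Of 15 pairs of groups 2 differed (limma, adjusted p under 0.05), both against neonate soft gels: aged stiff (−5.34, adjusted p = 0.0378) and aged primary (−5.15, adjusted p = 0.0277).

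The glutamate transporters were present in most libraries. Slc1a3, the member with the most reads, ran from 2.87 scaled TPM in aged stiff library 2 to 70.1 in aged primary library 3, and its 6 group means lay between 24.2 and 56.9. Slc1a2 was at 15.1 to 59.2 in the 9 neonate libraries, and at 0 in aged soft libraries 2 and 3 and aged stiff library 2. In aged primary cells Slc1a2 was at 18.2, 4.64 and 86.7, so 1 group held both its highest level and its lowest above 0. No pair among 15 pairs of groups passed for either transporter. The reads of Slc1a3 were all assigned to 1 of its 4 annotated transcripts, and 98.2% of the TPM of Slc1a2 to 1 of 3.

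The other 4 members were lower or more scattered. Aqp4 was at 11.6, 8.61 and 7.36 scaled TPM in aged primary and 1.08, 2.79 and 4.86 in neonate primary libraries, which did not overlap. On gels Aqp4 was at 27.3, 16.2 and 15 in neonate stiff and 3.75, 14.4 and 7.13 in neonate soft libraries, against 15.5, 0 and 0 in aged stiff and 3.44, 7.85 and 0 in aged soft libraries. Aldoc was at 29.8 to 38.0 in neonate primary cells and at 0, 27.4 and 6.31 in aged primary cells, again without overlap. Gja1 peaked in neonate primary cells, at 41.3, 34.9 and 52.7, above its levels in every one of the 15 other libraries. The highest of those was 29.5, in neonate soft library 2. Clu, with the fewest reads, was listed at 0 in 7 of 18 libraries, among them all 3 aged stiff libraries, and did not exceed 32.0. No pair of groups passed for Aqp4, Aldoc, Gja1 or Clu.

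Aged and neonate cells were then compared in each setting, as contrasts of 1 fit of all 18 libraries and 15144 genes, whose 6 groups share 1 estimate of the spread (limma on log2(scaled TPM + 1), Benjamini-Hochberg adjusted p under 0.05 over the genes of each comparison). In primary cells none of the 10 members passed, where 2.6% of all genes did. Fabp7 had the largest difference, aged minus neonate, at −4.38 (SE 1.35, adjusted p = 0.0889), followed by Gja1 (−2.73, adjusted p = 0.36) and Aldoc (−2.50, adjusted p = 0.281). These 3 were lower in every aged than in every neonate library, which held for 4.97% of all genes, and Aqp4 (+1.48, adjusted p = 0.675) was higher in every aged library, which held for 11.1%. Gfap (−0.32) and Sparcl1 (−0.05) differed by less than their standard errors of 1.09 and 0.84. The members' median difference was −0.62, with 3 positive and 7 negative, beside a median of 0.69 over all genes.

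On soft gels Mt3 fell in aged cells (fitted difference −6.70, SE 1.36, adjusted p = 0.00738), the 1 member of 10 that passed, where 1.56% of all genes passed in either direction and 0.191% as lower. This fitted value was −10.01 with a pseudocount of 0.1 in place of 1 and −3.40 with voom, a fit weighted by read numbers, and the call held in both. Sparcl1 (−3.13, SE 0.84, adjusted p = 0.0565) and Gfap (−3.76, SE 1.09, adjusted p = 0.0805) had differences of several SE and did not pass. Gfap, Fabp7, Mt3 and Sparcl1 were lower in every aged than in every neonate soft gel library, which held for 3.68% of all genes. All 10 fitted differences were negative, with a median of −2.22 beside 0.86 over all genes. The Mt3 call was lost without neonate soft library 1 (adjusted p = 0.0563), and without the 3 broad libraries Gfap and Slc1a2 passed as well (adjusted p = 0.034 and 0.0344).

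On stiff gels 3 members fell in aged cells, where 2.18% of all genes passed in either direction and 1.05% as lower. They were Mt3 (−6.32, SE 1.36, adjusted p = 0.00849), Gfap (−4.27, SE 1.09, adjusted p = 0.0306) and Sparcl1 (−3.53, SE 0.84, adjusted p = 0.0206). Fabp7 had a difference of −4.77 (SE 1.35, adjusted p = 0.0628), and Aldoc (−3.05) and Aqp4 (−2.96) had adjusted p of 0.158 and 0.218. Gfap, Fabp7, Mt3, Sparcl1 and Clu were lower in every aged than in every neonate stiff gel library, against 4.79% of all genes. For Clu and Fabp7 this separation lies within the worth of about 1 read pair. The neonate stiff Clu values rested on 1.68, 1.11 and 0.177 pairs, and the lowest Fabp7 value on 1.23. In aged stiff libraries 1 pair was worth 6.45 to 11.2 scaled TPM on Clu and 19.9 to 34.7 on Fabp7. All 10 fitted differences were negative, with a median of −3.01 beside 0.49 over all genes, and the smallest was that of Gja1 (−0.25). The Mt3 difference was −9.63 with a pseudocount of 0.1 and −2.43 with voom, and the call held in both. Each of the 3 calls depended on single libraries. That of Mt3 was lost without neonate stiff library 2 (adjusted p = 0.0674), that of Gfap without aged stiff library 2 (0.212) or neonate stiff library 1 (0.101), 2 (0.145) or 3 (0.0692), and that of Sparcl1 without aged stiff library 1 (0.0964) or 2 (0.0705), neonate stiff library 1 (0.116) or 2 (0.13), or the 3 broad libraries (0.0631). The calls of Gfap and Sparcl1 were also lost with a pseudocount of 0.1 (adjusted p = 0.148 and 0.0536), with no scaling (0.101 and 0.151) and in a fit of only the 2 groups compared (0.0638 and 0.0952), and that of Sparcl1 with quantile normalization (0.0583) and array weights (0.0923).

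**Figure D3:**
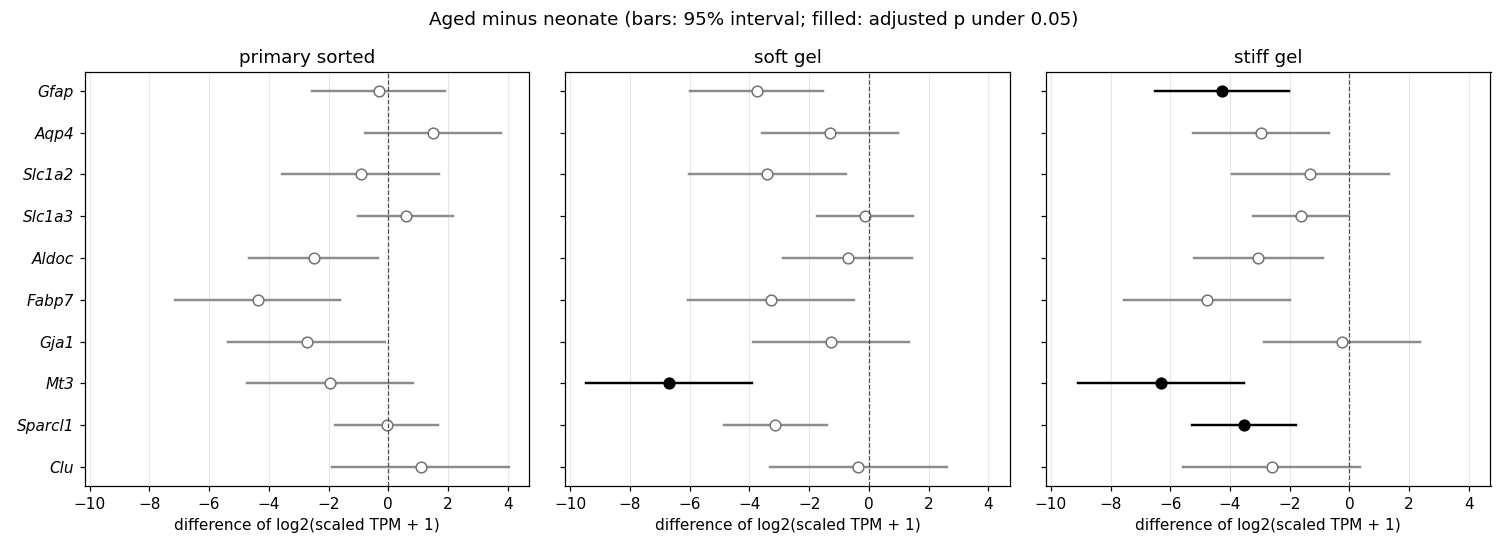
Fitted aged minus neonate difference of log2(scaled TPM + 1) for each gene, in primary cells, on soft gels and on stiff gels. Bars are 95% intervals and filled points have an adjusted p under 0.05. All 10 points lie below 0 on both gels, and filled points mark Mt3 on soft gels and Gfap, Mt3 and Sparcl1 on stiff gels.

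With both gels taken as 1 contrast of 6 aged against 6 neonate libraries, a comparison added after the values were seen, 4 members fell in aged cells. Gfap differed by −4.01 (SE 0.77, adjusted p = 0.00158), Fabp7 by −4.03 (SE 0.96, adjusted p = 0.0114), Mt3 by −6.51 (SE 0.96, adjusted p = 5.71e-05) and Sparcl1 by −3.33 (SE 0.60, adjusted p = 0.000745). Of all genes 5.55% passed this contrast, and 1.76% passed as lower. All 6 aged gel libraries lay below all 6 neonate gel libraries for Gfap, Mt3 and Sparcl1, which held for 0.878% of all genes. The 4 calls held with each of the 18 libraries left out in turn, with adjusted p of up to 0.0418 for Fabp7, 0.00772 for Gfap, 0.00394 for Sparcl1 and 0.000386 for Mt3. Without the 3 broad libraries the 4 passed and Slc1a2 (−3.68, adjusted p = 0.0195) and Aqp4 (−2.92, adjusted p = 0.0243) passed too. This contrast was not run under the other settings tried for the single gels, such as another pseudocount, scaling, voom or array weights. Whether its 4 calls hold there was not tested. The contrast shares its libraries with both gel comparisons and adds no independent evidence to them.

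OPC and other markers moved with this contrast. The summed OPC markers were lower in every aged gel library (51.4 to 621) than in every neonate gel library (630 to 1389), as was the sum of the 10 members (34.2 to 183 against 322 to 863). Of single OPC markers Sox10, a transcription factor of the oligodendrocyte lineage, fell on both gels (−2.89, adjusted p = 0.0439 on soft and −4.50, adjusted p = 0.00065 on stiff), where 0.191% and 1.05% of all genes fell. Whether the Sox10 calls hold under other settings or with libraries left out was not tested. Microglia markers summed to 128 to 296 in aged and 34.4 to 95.6 in neonate gel libraries, and endothelial and pericyte markers to 17.7 to 113 against 2.0 to 6.33. In primary cells the microglia sum was 2105 to 3330 in aged against 111 to 215 in neonate libraries. The part of these shifts in the members' levels was not tested.

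**Figure D4:**
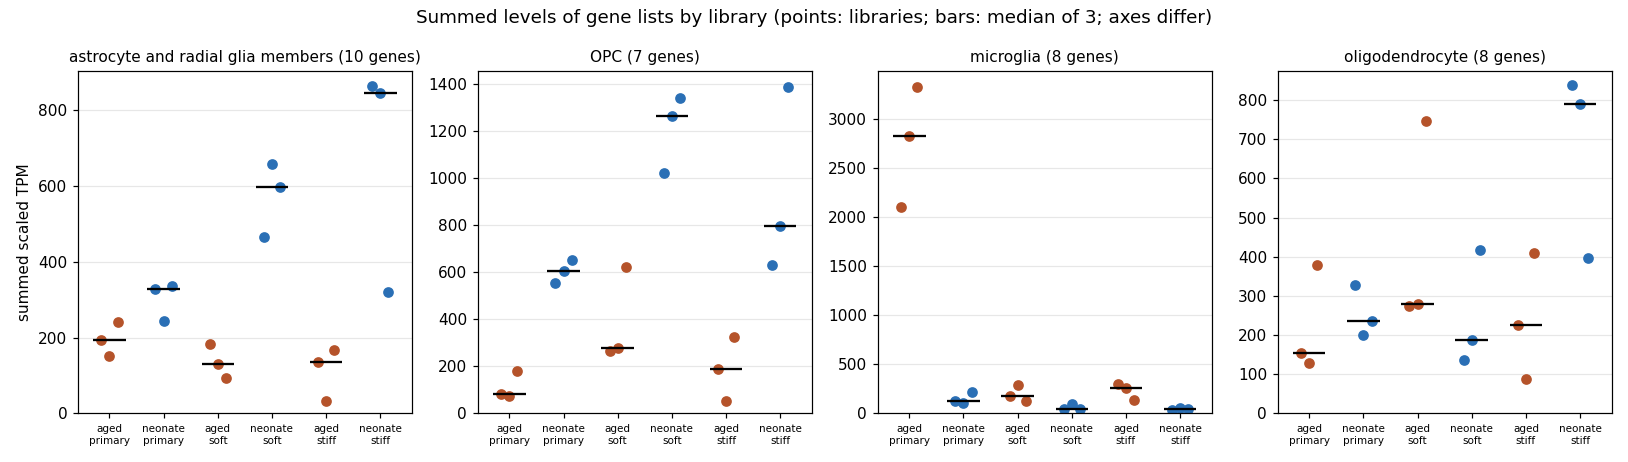
Summed scaled TPM of the 10 members and of OPC, microglia and oligodendrocyte marker genes, by library in 6 groups of 3 (points are libraries, bars medians, vertical axes differ). The members' sum was highest in neonate gel cultures, at 322 to 863, and the microglia sum in aged primary cells, at 2105 to 3330.

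Gel stiffness was compared within each age, the question named in the study's title. None of the 10 members passed between soft and stiff gels in aged cells, where 0.0792% of all genes did. None passed in neonate cells, where 0% of all genes did and 438 had an unadjusted p under 0.05 (limma). The largest differences, soft minus stiff, were those of Clu (+2.39, 95% interval −0.57 to 5.34) and Aldoc (+2.18, 0.02 to 4.33) in aged cells, and of Aqp4 (−1.24, −3.52 to 1.04) and Sparcl1 (−1.11, −2.84 to 0.62) in neonate cells. The interval of Gfap ran from −1.85 to 2.61 in aged and from −2.37 to 2.10 in neonate cells. Aqp4 in neonate cells was the 1 member whose soft and stiff libraries did not overlap, lower on soft gels, which held for 2.53% of all genes. The test of whether stiffness acted differently in aged and neonate cells called none of the members, with adjusted p of 0.984 or more, and 0.0066% of all genes.

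Culture was compared with primary cells as the mean of both gels minus primary. In neonate cells Gfap had the largest difference, +4.36 (SE 0.94, unadjusted p = 8.55e-05, adjusted p = 0.0778), and it was higher in all 6 gel libraries, at 43.7 to 192 scaled TPM, than in all 3 primary libraries, at 3.16 to 5.13. It did not pass, and 0 of the 10 members did, where 0.099% of all genes did. Sparcl1 (+2.15, SE 0.73, adjusted p = 0.581) was likewise higher in every gel library, which held for 1.22% of all genes, and Gja1 (−1.65, SE 1.11, adjusted p = 1) lower in every gel library, which held for 2.4%. The Gfap difference passed without aged primary library 2 (adjusted p = 0.0413), aged soft library 3 (0.0276) or aged stiff library 2 (0.0192), none of which enters the difference itself, and in a fit of only the 3 neonate groups (0.00062). In aged cells no member passed, where 1.11% of all genes did, and the differences ran from −1.93 for Mt3 to +0.84 for Fabp7.

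**Figure D5:**
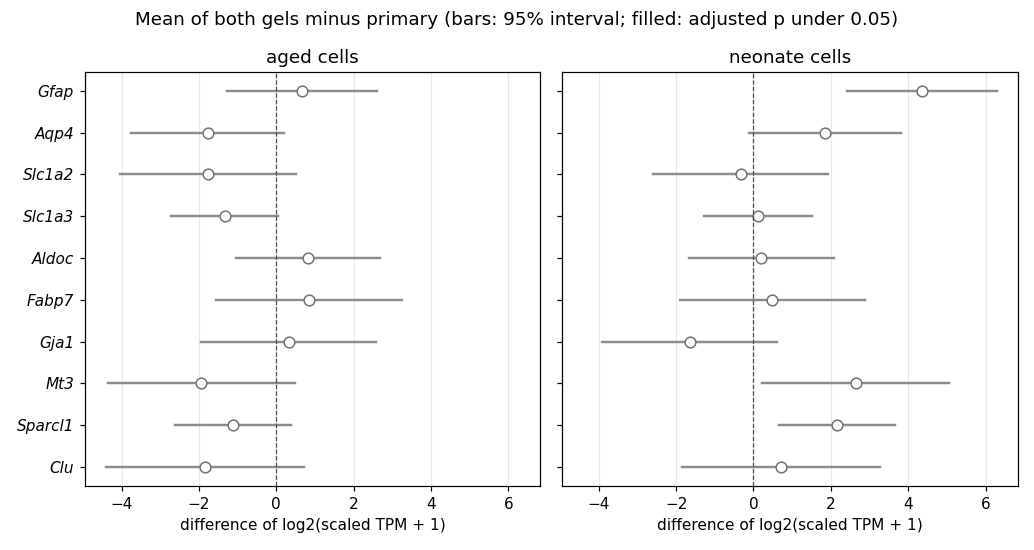
Fitted difference of log2(scaled TPM + 1), mean of both gels minus primary, for each gene in aged and in neonate cells. Bars are 95% intervals, and no point is filled because none had an adjusted p under 0.05. Gfap in neonate cells lies farthest from 0, at +4.36.

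An interaction term asked whether the culture difference depended on age, and none of the members passed it, where 0.112% of all genes did. Mt3 (−4.57, SE 1.66, adjusted p = 0.636), Gfap (−3.70, SE 1.33, adjusted p = 0.63), Aqp4 (−3.62, SE 1.36, adjusted p = 0.662) and Sparcl1 (−3.28, SE 1.03, adjusted p = 0.467) had 95% intervals below 0. The age differences on gels and in primary cells are therefore not shown to differ for these genes. Choroid plexus and ependymal markers summed to 279 to 6795 in primary and 0 to 51.2 in gel libraries, nearly all from Ttr, and their part in the culture comparisons was not tested.

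Other genes of the same cell types moved unevenly. Of 31 further astrocyte genes tested, 2 rose with age in primary cells: Cst3, the protease inhibitor cystatin C (+5.38, adjusted p = 1.8e-08), and Apoe, the lipid carrier (+3.24, adjusted p = 0.00173), where 1.94% of all genes rose. Both are also known microglial transcripts, and both fell from primary to gel culture in aged cells (−5.06 and −3.05) and in the interaction with age (−5.55 and −4.50), where 0.773% and 0.0792% of all genes fell. The Apoe interaction was lost without neonate primary library 2 (adjusted p = 0.0554) and with no scaling (0.0537). With quantile normalization the 3 differences of Cst3 were +3.03, −2.85 and −2.93, and they kept their calls. On gels 1 of the 31 fell with age, the amino acid transporter Slc7a10 on stiff gels (−3.72, adjusted p = 0.0425), where 1.05% of all genes fell. It kept its call in 10 of 28 alternatives and lost it without any 1 of the stiff gel libraries other than aged stiff library 2 (0.0725 to 0.178). The list's median age difference was −0.67 in primary, −0.18 in soft and −0.58 in stiff gel cells, beside 0.69, 0.86 and 0.49 over all genes.

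Of 24 further radial glia and neural stem cell genes, 3 fell with age in primary cells, where 0.66% of all genes did. They were the stem cell factor Sox2 (−3.95, adjusted p = 0.00468), the transcription factor Nfib (−4.46, adjusted p = 0.0113) and the acyl-CoA binding protein Dbi (−4.99, adjusted p = 0.0438). The 3 aged primary libraries held Sox2 at 8.82, 0 and 12.6 scaled TPM, against 69.9, 88.6 and 76.7 in the neonate ones, and it kept its call in 27 of 28 alternatives, all but that without aged primary library 2 (adjusted p = 0.0507). Nfib kept its call in 25, losing it without aged primary library 3 (0.0932) or neonate primary library 3 (0.0582) or with a pseudocount of 0.1 (0.088). Dbi (−3.31 with voom) kept it in 16 and lost it, among others, without aged primary library 2 (0.162) or 3 (0.157) or any 1 of the neonate primary libraries (0.123 to 0.131). Sox2 and Nfib are also transcribed by OPCs. On stiff gels 1 fell, Id3, an inhibitor of DNA binding (−6.33, adjusted p = 0.00536), where 1.05% of all genes fell. Id3 was listed at 0 in all 3 aged libraries and at 68.9, 127 and 56.4 in the neonate ones. Its fitted difference, which is no bound, was −9.63 with a pseudocount of 0.1 and −3.59 with voom. The intermediate filament Vim rose from primary to culture in aged cells (+2.66, adjusted p = 0.0171) and the RNA-binding protein Zfp36l1 fell (−4.96, adjusted p = 0.00643), where 0.337% of all genes rose and 0.773% fell. Vim kept its call in 22 of 28 alternatives and lost it without aged primary library 1 (0.0719), 2 (0.125) or 3 (0.0596) or the 3 broad libraries (0.102), with no scaling (0.0505) and with array weights (0.0923). Zfp36l1 kept its call in 25, losing it without aged primary library 2 (0.0637) or 3 (0.0818) or with a pseudocount of 0.1 (0.0767).

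Reactive astrocyte genes, known to rise in injured or inflamed tissue, had mostly positive age differences: 15 of 16 in primary cells, 15 on soft gels and 14 on stiff gels. Of these, complement C3, which is also a microglial gene, rose with age in primary cells (+8.11, adjusted p = 2.4e-06), on soft gels (+5.24, adjusted p = 0.000731) and on stiff gels (+5.09, adjusted p = 0.000595), where 1.94%, 1.37% and 1.13% of all genes rose. Its stiff gel call was lost in a fit of only the 2 groups compared (0.0519), and with a pseudocount of 0.1 the stiff gel difference was +8.37. Lcn2, the iron-binding protein lipocalin 2, rose with age on soft gels (+5.42, adjusted p = 0.0364), at 85.3, 67.6 and 12.3 in the aged soft group and 0 in all 3 neonate soft libraries. It kept its call in 20 of 28 alternatives and lost it with a pseudocount of 0.1 (+8.70, adjusted p = 0.084) and without aged soft library 1 (0.129) or 2 (0.088), any 1 of the neonate soft libraries (0.12 to 0.135), neonate stiff library 2 (0.0505) or the 3 broad libraries (0.078). With voom its difference was +2.35. Cd44, the hyaluronan receptor, rose from primary to culture in aged cells (+4.33, adjusted p = 0.0142, +6.54 with a pseudocount of 0.1), where 0.337% of all genes rose. The Cd44 call was lost without aged primary library 2 (0.168) or 3 (0.155). The list's median age difference was 1.29, 2.07 and 1.55 in primary, soft and stiff gel cells, beside the 0.69, 0.86 and 0.49 of all genes, and Gfap itself had differences of −0.32, −3.76 and −4.27. None of the 16 was called lower in any of the 9 comparisons (limma, adjusted p under 0.05), though some differences were negative. Of all genes 0% to 1.05% were called lower.

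The last list held 16 tested genes, mostly of the members' families. Ncan, a matrix proteoglycan that belongs to none of those families, fell with age in primary cells (−5.38, adjusted p = 0.000312), on soft gels (−3.60, adjusted p = 0.0188) and on stiff gels (−3.56, adjusted p = 0.0137), where 0.66%, 0.191% and 1.05% of all genes fell, and it is a known transcript of both astrocytes and OPCs. Its soft gel call was lost with a pseudocount of 0.1 (0.14), or without aged soft library 2 (0.0518) or 3 (0.0704) or any 1 of the neonate soft libraries (0.0685 to 0.0807), and its stiff gel call without aged stiff library 1 (0.0664) or 2 (0.0695) or neonate stiff library 2 (0.079), with a pseudocount of 0.1 (0.147) and with no scaling (0.123). Fabp4, the adipocyte and macrophage relative of Fabp7, rose with age on soft (+7.03, adjusted p = 0.00158) and stiff gels (+5.74, adjusted p = 0.00721), where 1.37% and 1.13% of all genes rose. Fabp4 was at 135 to 1196 scaled TPM in aged and 0 to 27.3 in neonate gel libraries. Its stiff gel call was lost without neonate stiff library 3 (0.0839) and with a pseudocount of 0.1 (0.0965). It was listed at 0 in all 6 primary libraries and rose from primary to culture in aged cells (fitted difference +8.65, no bound, adjusted p = 1.53e-05), where 0.337% of all genes rose. Sparc, the relative of Sparcl1, rose with age in primary cells (+3.85, adjusted p = 0.0358), where 1.94% of all genes rose and the Sparcl1 difference was −0.05. Sparc fell from primary to culture in aged cells (−4.98, adjusted p = 0.00266), where 0.773% of all genes fell. The first of these calls was lost without any 1 of the 6 primary libraries (adjusted p of 0.0641 to 0.171), without the 3 broad libraries (0.05003), with a pseudocount of 0.1 (0.25) and with no scaling (0.0881). Of 12 genes of glutamate and glutamine handling none passed in any of the 9 comparisons, where 0% to 2.6% of all genes did.

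The members varied together only in part. Across the 18 libraries the Pearson correlation of log2(scaled TPM + 1) was above 0 in 40 of the 45 pairs of members, with a median of 0.38, and the highest were between Mt3 and Sparcl1 (0.66), Gfap and Mt3 (0.64) and Slc1a2 and Gja1 (0.63). These are descriptions: the points share libraries, depth and scaling. Among 4266 genes above 0 in at least 9 libraries at a mean of at least 10 scaled TPM, the patterns most like that of Gfap were those of Acat2 (r = 0.87), Fasn (0.84) and Ipo4 (0.79). Acat2 and Fasn are enzymes of sterol and fatty acid metabolism, and their means were 122 and 60.1 scaled TPM in neonate soft, 78.6 and 54.6 in neonate stiff and 8.96 to 28.2 in the other 4 groups. Most like Mt3 were Mvk (0.89), Ndn (0.83) and Xpo5 (0.83), most like Sparcl1 were Tkt (0.84), Map4k4 (0.83) and Smarcd3 (0.79), and most like Fabp7 were the OPC factor Sox6 (0.85), Sub1 (0.85) and Serpine2 (0.84).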

How the data were processed

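Levels came from deposited StringTie 1.3.2d transcript tables of 18 libraries. Per the file headers the authors limited quantification to annotated rn6 transcripts, without a strand option, and gave TPM beside FPKM and coverage; the submitters' processing notes also name Trimmomatic, HISAT2 and Bowtie without role. The library kit was a stranded kit for picogram inputs of total RNA. TPM was summed per gene, then scaled per library by the median ratio over 1644 genes detected in each of the 18. Read pairs were estimated as coverage times length over 300 bases. The 15144 genes that reached a TPM of 1 in 3 or more libraries were fitted as 6 group means of log2(scaled TPM + 1) in limma 3.58.1 (R 4.3.3, trended variance), with Benjamini-Hochberg adjustment and a threshold of 0.05. Replicate numbers were not taken to pair libraries. In no pair of groups did all 3 same-numbered pairs correlate above 0.1 (lowest value of each −0.0929 to 0.0514). However, the 3 broad libraries, replicate 1 of each aged group, correlated at 0.233, 0.213 and 0.118, and replicate 3 of aged primary and aged stiff at 0.151. In 12 of 18 files the library number in the header differs from the title's, and titles were used. A pairing by the header numbers was not tested. No libraries were identical (highest r 0.739). All 10 members were tested in each comparison, and the text does not name every member in each. Of each further gene list the called genes are named, at most 4 per comparison. Called cell type markers are not all named. The most alike genes are the 3 of highest Pearson r. The members and lists were chosen with earlier results of these data known. Names and promoters of GRCr8 were matched by symbol. The promoter of Clu is not used here.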

Additional observations from a re-analysis of the deposited data

How the results depend on the processing

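Counts of members called moved with several settings. In primary cells the count of 0 became 1 with no scaling or array weights and 2 with voom on read equivalents. For soft gels the count of 1 became 2 with quantile normalization, 3 without the 3 broad libraries, and 4 with voom or with both gels as 1 contrast, an alternative added after the data were seen. For stiff gels the count of 3 became 1 with a pseudocount of 0.1, with no scaling or with only the groups compared, 2 with quantile normalization or array weights, and 5 with voom. For neonate culture the count of 0 became 1 with voom, array weights or only the groups compared. With each library left out the counts ran from 0 to 1 in primary cells and neonate culture, 0 to 3 on soft gels and 0 to 4 on stiff gels, and stayed at 0 in the other 5 comparisons. The cause was not tested.

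The replicate block gave 2 on soft gels, adding Sparcl1 (adjusted p = 0.0397), and changed the count in no other comparison. The numbers were not taken to mark a pairing, and the data do not settle whether libraries were paired. The median age difference over all genes itself moved with the scaling. No scaling shifted it by −0.15 in primary and 0.25 in stiff gel cells. Quantile normalization shifted it by −0.69, −0.86 and −0.47 in primary, soft and stiff gel cells. Single genes moved by other amounts. No called difference of a member or of a gene named from the further gene lists changed sign under any alternative. The cell type markers, Sox10 among them, were not run through the alternatives. The contrast of both gels was run again only with libraries left out. Of 2516 member differences 93 changed sign, none of them called. Depth limits Mt3, Clu and Fabp7 most, where a few pairs decide a value.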
